A study of Homo sapiens with 13 samples.

Results

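The forkhead box (FOX) genes encode transcription factors that share the forkhead DNA-binding domain. Members were all protein-coding RefSeq genes of the GRCh38.p14 assembly whose symbol is FOX, a letter from A to S and a number, which gave 52 of 20037 protein-coding genes. By the rule, 18 members were counted as widely expressed (the FOXO, FOXK, FOXN and FOXP genes with FOXJ2, FOXJ3 and FOXM1) and the other 34 as tissue-restricted. Expression is not in the data used here, so the names of these groups come from the rule and not from these cells. FOXN1, FOXN4, FOXP2 and FOXP3 are known for restricted expression but fall in the widely expressed group, and FOXL2NB matches by its symbol as the neighbour of FOXL2 and is not a forkhead factor.

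The sites that GFP-tagged DNMT1 occupies were mapped with an antibody to GFP and ChIP-seq in MV4-11 cells, an established line of human acute myeloid leukaemia. The study compared wild-type DNMT1 with a form that lacks the RFTS domain, and cells with and without a guide against UHRF1, each under vehicle and under a DNMT1 inhibitor. Broad-peak lists of 10 GFP-DNMT1 libraries and 1 parental library were used. All 10 libraries came from cells that carried a guide against endogenous DNMT1 (gDNMT1) and overexpressed GFP-DNMT1. NTC cells had the wild-type protein and a non-targeting guide (gNTC), UHRF1KO cells the wild-type protein and a guide against UHRF1, WT cells the wild-type protein alone, and RFTSdel cells the RFTS deletion mutant. Each line was treated for 7 days with DMSO or with 100 nM of the inhibitor (DNMT1i). RFTSdel had 2 libraries in each treatment, and every other line had 1. The parental cells were untreated and carried no GFP. By the sample labels WT, RFTSdel and parental cells form batch 1, and NTC and UHRF1KO form batch 2. The lists hold no check that DNMT1 or UHRF1 was lost, and since the labels do not say whether the RFTSdel replicates were cultured apart, p-values and SDs may measure technical spread.

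DNMT1 copies CpG methylation onto newly made DNA strands, and UHRF1 brings it to hemimethylated sites. The RFTS domain takes part in that targeting and also folds back on the catalytic domain as an autoinhibitory element. Many developmental forkhead genes are short, lie in CpG islands and are silent outside their own tissue, whereas FOXO, FOXK and FOXP factors act in many cell types, including blood cells.

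Promoter windows (250 bp before to 50 bp after the gene start, RefSeq, GRCh38.p14) were found for 41 of the 52 members. Windows of 6 members are printed 5′ to 3′ with each CpG dinucleotide in capitals, because they span the patterns of occupancy described next. The choice was made after the peaks were seen. FOXB2 and FOXL2 had peaks only under DNMT1i, FOXQ1 gained libraries under DNMT1i, FOXD3 had peaks in all 10 libraries, FOXN3 had peaks in all 5 DMSO libraries, and FOXR2 had none. The windows lie at chr9:77019405-77019704 (plus strand), chr3:138947088-138947387 (minus strand), chr6:1311848-1312147 (plus strand), chr1:63322317-63322616 (plus strand), chr14:89619116-89619415 (minus strand) and chrX:55623150-55623449 (plus strand).
FOXB2: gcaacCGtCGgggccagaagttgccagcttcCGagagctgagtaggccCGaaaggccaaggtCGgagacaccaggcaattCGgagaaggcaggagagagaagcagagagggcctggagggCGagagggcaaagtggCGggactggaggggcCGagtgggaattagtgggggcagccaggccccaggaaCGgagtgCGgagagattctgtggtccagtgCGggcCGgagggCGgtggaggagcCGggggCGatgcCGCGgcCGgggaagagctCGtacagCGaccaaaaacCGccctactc
FOXL2: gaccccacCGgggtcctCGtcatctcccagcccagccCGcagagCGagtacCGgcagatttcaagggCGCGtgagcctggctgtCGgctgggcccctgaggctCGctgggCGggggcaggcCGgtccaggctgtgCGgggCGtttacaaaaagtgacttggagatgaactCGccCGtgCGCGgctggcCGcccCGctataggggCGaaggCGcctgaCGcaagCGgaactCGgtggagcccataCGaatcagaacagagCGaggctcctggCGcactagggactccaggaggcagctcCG
FOXQ1: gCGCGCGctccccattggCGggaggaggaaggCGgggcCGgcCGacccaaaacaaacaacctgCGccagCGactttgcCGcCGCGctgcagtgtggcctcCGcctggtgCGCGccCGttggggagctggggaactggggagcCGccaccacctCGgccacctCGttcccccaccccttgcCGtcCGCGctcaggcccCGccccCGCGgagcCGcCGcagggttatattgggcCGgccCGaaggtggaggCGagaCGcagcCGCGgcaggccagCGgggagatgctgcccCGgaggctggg
FOXD3: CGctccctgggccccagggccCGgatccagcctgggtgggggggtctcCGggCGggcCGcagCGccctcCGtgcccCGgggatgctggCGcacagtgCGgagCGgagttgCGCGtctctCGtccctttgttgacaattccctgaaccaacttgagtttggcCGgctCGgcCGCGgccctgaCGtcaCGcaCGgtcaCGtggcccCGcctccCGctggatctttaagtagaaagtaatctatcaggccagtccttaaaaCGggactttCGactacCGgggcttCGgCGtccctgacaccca
FOXN3: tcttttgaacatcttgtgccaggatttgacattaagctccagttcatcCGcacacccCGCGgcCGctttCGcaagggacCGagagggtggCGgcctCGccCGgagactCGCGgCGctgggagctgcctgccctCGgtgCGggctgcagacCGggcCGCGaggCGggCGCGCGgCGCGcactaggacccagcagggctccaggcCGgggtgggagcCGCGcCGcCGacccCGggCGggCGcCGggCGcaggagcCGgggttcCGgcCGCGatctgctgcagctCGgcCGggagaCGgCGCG
FOXR2: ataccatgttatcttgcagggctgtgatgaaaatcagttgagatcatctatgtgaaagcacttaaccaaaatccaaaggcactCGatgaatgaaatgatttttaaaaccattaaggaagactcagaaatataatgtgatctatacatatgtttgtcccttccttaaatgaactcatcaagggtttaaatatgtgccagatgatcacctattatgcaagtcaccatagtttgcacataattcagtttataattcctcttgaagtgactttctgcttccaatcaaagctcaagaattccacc
FOXB2 held 22 CpG, FOXL2 28, FOXQ1 35, FOXD3 29 and FOXN3 42 in 300 bp, against 1 in FOXR2. The median over the 15842 protein-coding genes with a window was 24.

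A gene was called marked in a library when a peak overlapped, by at least 1 bp, the 1000 bp on either side of either gene end. In lines with wild-type DNMT1, 10 to 13 of the 18 widely expressed members were marked under DMSO and at most 3 under DNMT1i, whereas RFTSdel cells marked 13 under either. Of the 34 tissue-restricted members, 6 to 13 were marked under DMSO and 15 to 22 under DNMT1i, more under DNMT1i in all 5 pairs of libraries. No member was marked in the parental library, at an end or over the body, while 484 protein-coding genes (2.42%) were marked at an end there. In the 10 GFP-DNMT1 libraries 40 of the 52 members were marked at least in 1. Between 12245 and 32534 peaks per DMSO library and between 4254 and 11141 per DNMT1i library were used, after removal of peaks that touched a parental peak. The lists shrank under DNMT1i in every pair and their sequencing depth is unknown, so each count of members is read against the share of all protein-coding genes in the same library.

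**Figure D1:**
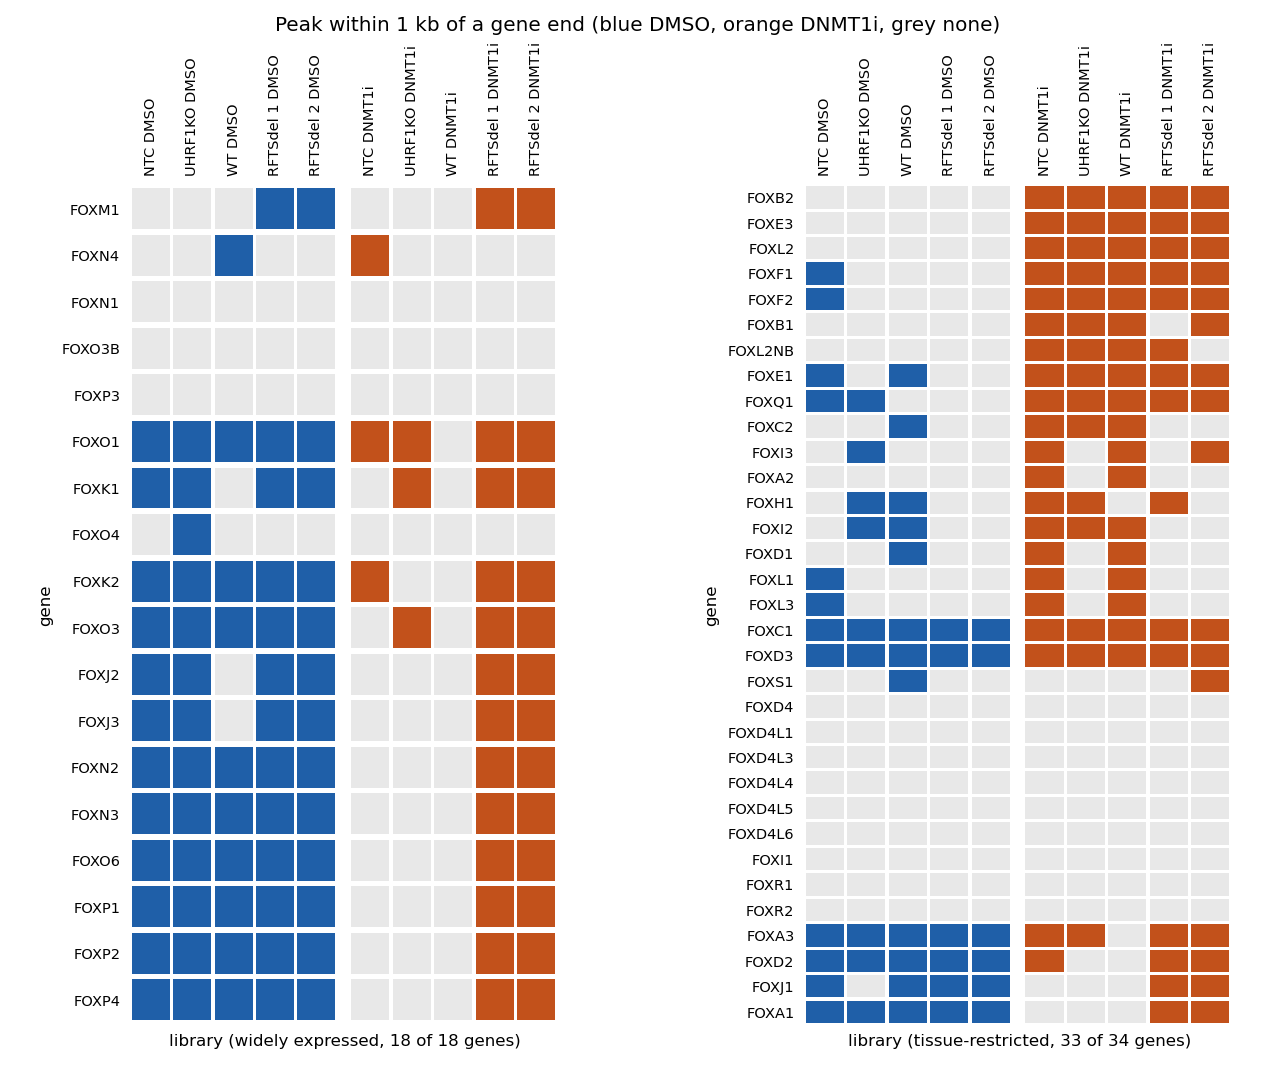
Each row is a forkhead gene and each column a library, and a filled cell is a peak within 1 kb of a gene end (blue DMSO, orange DNMT1i, grey none). In the left block of 18 widely expressed genes the orange cells sit mostly in the 2 RFTSdel columns. In the right block of 33 of the 34 tissue-restricted genes the upper rows are orange with few blue cells.

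Under DMSO the widely expressed members were marked more often than the tissue-restricted members in every library. In NTC 25 members were marked, 12 of 18 widely expressed and 13 of 34 tissue-restricted, beside 50.8% of all protein-coding genes. In UHRF1KO 22 were marked (13 and 9) beside 53.7% of all genes, and in WT 22 (10 and 12) beside 44.2%. Both RFTSdel DMSO libraries marked the same 19 members, 13 widely expressed and 6 tissue-restricted, beside 44.9% of all genes in replicate 1 and 47.5% in replicate 2. The share of widely expressed members was above the share of all genes in all 5 libraries, and the share of tissue-restricted members was below it in all 5.

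Under DNMT1i the order of the 2 groups turned in the lines with wild-type DNMT1. NTC marked 25 members, 3 widely expressed and 22 tissue-restricted, beside 14.5% of all genes. UHRF1KO marked 19 (3 and 16) beside 15.8%, and WT marked 19 (0 and 19) beside 9.95%. RFTSdel marked 28 (13 and 15) beside 29.1% in replicate 1 and 29 (13 and 16) beside 41.2% in replicate 2. The tissue-restricted share was above the share of all genes in all 5 DNMT1i libraries.

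Over the 5 pairs, the tissue-restricted share went from 27.1% ± 9.62 (SD, n = 5) to 51.8% ± 8.47 (SD, n = 5), a difference of 24.7 ± 3.95 percentage points (SD, n = 5 pairs). The difference was positive in 5 of 5 pairs, at 26.5 points for NTC, 20.6 for UHRF1KO, 20.6 for WT, 26.5 for RFTSdel replicate 1 and 29.4 for replicate 2. Within batches it was 25.5 points in batch 1 and 23.5 in batch 2. The share of all protein-coding genes went from 48.2% ± 4.00 to 22.1% ± 12.8 (SD, n = 5 each), lower in 5 of 5 pairs. With peaks of a −log10 q of at least 2 the tissue-restricted difference was 22.4 points, and with lists cut to equal length 30.6 ± 20.4 points (SD, n = 5 pairs). It reversed at a −log10 q of at least 4, to −3.53 ± 2.46 points (SD, n = 5 pairs). The share of all genes was not computed at these settings, so these values have no background to be read against. Most of these peaks were weak by the authors' own values: the median −log10 q beside tissue-restricted members was 1.84 under DMSO and 2.33 under DNMT1i. The median over a whole DNMT1i list was between 1.92 and 2.59, so the members' 2.33 lay within that of the lists. Medians of whole DMSO lists were between 1.96 and 4.36, so the members' 1.84 lay below all of them.

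The widely expressed share went from 67.8% ± 7.24 to 35.6% ± 34.2 (SD, n = 5 each). The 5 pairs fell in 2 kinds: NTC changed by −50 points, UHRF1KO by −55.6 and WT by −55.6, whereas both RFTSdel replicates changed by 0. Over all genes the changes were −36.3 points for NTC, −37.9 for UHRF1KO and −34.2 for WT, against −15.9 and −6.29 for RFTSdel. Under DNMT1i the widely expressed share was 16.7% in NTC and in UHRF1KO, close to the 14.5% and 15.8% of all genes. It was below the share of all genes in WT and above it in RFTSdel. For the widely expressed change, whole lists gave −32.2 ± 29.5 points and lists cut to equal length −10 ± 15.4 points (mean and SD, n = 5 pairs). Widely expressed minus tissue-restricted was 40.7 ± 15.6 points under DMSO and −16.2 ± 40.2 under DNMT1i (SD, n = 5 each), where NTC gave −48.0, UHRF1KO −30.4, WT −55.9 and the RFTSdel replicates 28.1 and 25.2. The DNMT1i mean was −1.5 ± 46.7 when FOXN1, FOXN4, FOXO3B, FOXO6, FOXP2 and FOXP3 were counted as tissue-restricted. All 52 members together went from 41.2% ± 4.83 to 46.2% ± 9.22 (SD, n = 5 each), a change smaller than its spread between pairs (5.0 ± 12.4 points). With lists cut to equal length it was 16.5 ± 9.08 points (SD, n = 5 pairs). No p-value is given for these shares, since members of 1 library share their source.

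**Figure D2:**
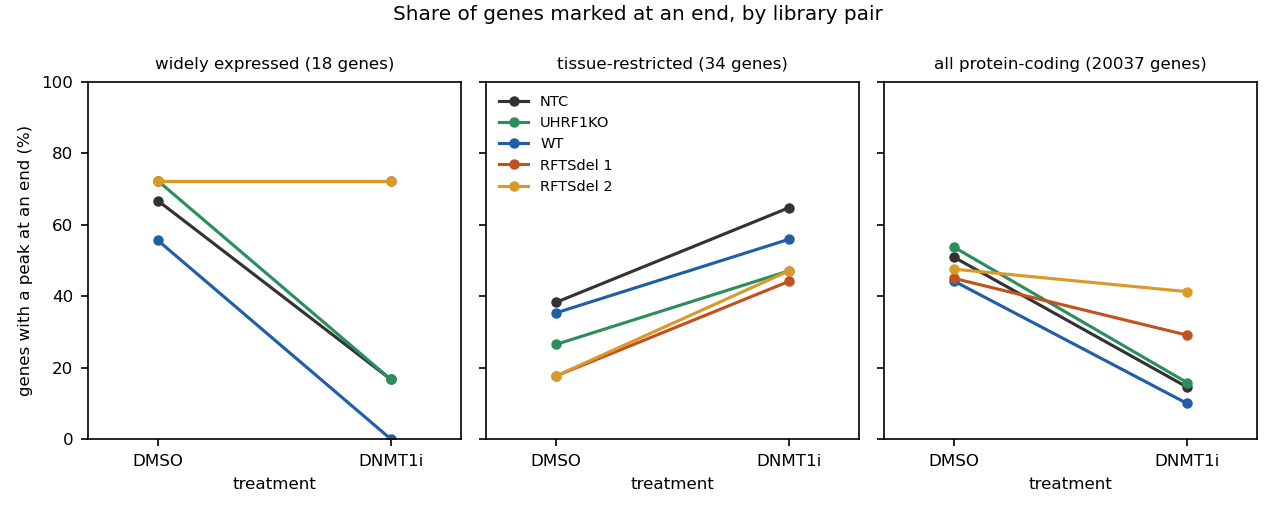
The share of genes with a peak at an end (percent, vertical axis) is joined from DMSO to DNMT1i for each of 5 pairs, for 18 widely expressed members, 34 tissue-restricted members and all 20037 protein-coding genes. In the left panel both RFTSdel lines lie on each other at 72.2% and the other 3 fall to at most 16.7%, in the middle panel all 5 lines go up, and in the right panel all 5 go down.

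Peaks over gene bodies went in the same direction. They are no separate support, since an end window reaches 1000 bp into the gene and both counts share many peaks in short genes. Under DMSO, body peaks lay in 12 widely expressed and 12 tissue-restricted members for NTC (57.8% of all genes), 14 and 9 for UHRF1KO (62.8%), 11 and 12 for WT (49.7%). In RFTSdel they lay in 13 and 3 (48.6%) and in 13 and 4 (52%). Widely expressed members led in share in all 5. Under DNMT1i NTC had 3 and 21 (19.3%), UHRF1KO 4 and 12 (18.1%), WT 1 and 18 (14.2%), and the RFTSdel replicates 12 and 15 (31.8%) and 14 and 17 (44.4%). Gene length differs between the groups: widely expressed members had a median length of 60821 bp and tissue-restricted members 3012 bp, none over 9527 bp. Length and group cannot be told apart within the family. Among all 5694 protein-coding genes of up to 10000 bp, the share marked at an end went from 39.0% ± 4.38 to 17.9% ± 9.53 (SD, n = 5 each), lower in 5 of 5 pairs. The part of gene length was not tested.

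Mark retention was then followed gene by gene within each pair. NTC kept 13 of its 25 DMSO-marked members under DNMT1i, beside 15.9% of all genes. UHRF1KO kept 9 of 22 beside 23.5%, and WT kept 6 of 22 beside 10.4%. RFTSdel kept 19 of 19 in each replicate, beside 55% and 72.5% of all genes. Retention was uneven between the groups in the wild-type lines: 2 of 12, 3 of 13 and 0 of 10 widely expressed members were kept in NTC, UHRF1KO and WT, against 11 of 13, 6 of 9 and 6 of 12 tissue-restricted members. In NTC and UHRF1KO the widely expressed share kept (16.7% and 23.1%) was close to that of all genes, and in WT it was lower. A kept member had an end peak in both treatments, not always at the same place. The 2 widely expressed members kept in NTC, FOXO1 and FOXK2, had peaks that did not overlap. At FOXK2 the midpoint lay at −105 bp from the gene start under DMSO and at 83937 bp under DNMT1i.

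Newly marked members were almost all tissue-restricted. NTC marked 11 of the 21 tissue-restricted members that had no end peak under DMSO, beside 13.1% of all unmarked genes. UHRF1KO marked 10 of 25 beside 6.86%, WT 13 of 22 beside 9.63%, and RFTSdel 9 of 28 beside 7.96% and 10 of 28 beside 12.9%. The only widely expressed gene newly marked in any pair was FOXN4, a retinal and spinal cord factor, in NTC. Across pairs, 18 members had an end peak in more DNMT1i than DMSO libraries, all tissue-restricted, beside 10.5% of all genes. Fewer DNMT1i than DMSO libraries were found for 17 members, 13 of them widely expressed, beside 54.9% of all genes. The 4 tissue-restricted genes in that direction were FOXA1, FOXA3, FOXD2 and FOXJ1.

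FOXB2, FOXE3 and FOXL2 were unmarked in all 5 DMSO libraries and marked in all 5 DNMT1i libraries, a pattern of 46 protein-coding genes (0.23%). FOXE3 is a lens factor and FOXL2 a factor of ovarian granulosa cells. For each, the exact two-sided permutation test of treatment within line gave p = 0.0417, the smallest value its 48 arrangements allow. After Benjamini-Hochberg adjustment over all 20037 genes this permutation p became 0.705. An adjusted p under 0.05 could occur only if most of the 20037 genes reached that smallest value, so this adjustment cannot decide on single genes. It left 0 of 20037 with an adjusted p under 0.05, and 873 had an unadjusted p under 0.05, 827 of them lower and 46 higher under DNMT1i. Only this pattern or its reverse gives the smallest p, so the p restates how the 3 genes were picked. With the RFTSdel replicate numbers as a block the smallest possible exact permutation p is 0.0625, so 0 genes could reach 0.05 unadjusted. The 3 genes depend on weak peaks. At a −log10 q of at least 2 the difference in marked libraries was 2 for FOXB2, 2 for FOXE3 and 4 for FOXL2, and the 1 member with the pattern was FOXE1. No member had it at a −log10 q of at least 4, at a fold of at least 4 or with lists of equal length.

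Under DNMT1i the FOXB2 peak was 1148 bp long for NTC, 317 bp for UHRF1KO, 1173 bp for WT, and 1578 and 804 bp for the RFTSdel replicates. The authors' fold enrichment of these peaks was 4.71, 4.01, 6.31, 3.83 and 3.37 in the same order. WT had the strongest FOXB2 peak (−log10 q 5.64) and RFTSdel replicate 1 the longest (chr9:77020013-77021590, −log10 q 1.57), and each midpoint lay inside the gene (chr9:77019655-77020953). FOXL2 had peaks of 1458 (chr3:138945378-138946835), 284, 890, 608 and 354 bp, with −log10 q of 2.06, 2.25, 3.67, 1.89 and 4.32. The 4 peaks other than that of RFTSdel replicate 2 lay between 869.5 and 1202.5 bp past the gene start by their midpoint, and that peak lay 2131.5 bp past it. FOXE3 peaks were 692, 399, 958, 1136 (chr1:47415939-47417074) and 607 bp long, with a fold of 4.42, 4.20, 4.42, 4.01 and 3.33. UHRF1KO had the shortest peak at each of the 3 genes. Its whole DNMT1i list also had the shortest peaks, with a median of 435 bp against 560 to 639 bp in the other lines.

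FOXB1, which acts in the developing hypothalamus, was marked only under DNMT1i, in all but RFTSdel replicate 1. FOXL2NB, whose start window overlaps that of FOXL2, was marked in all but RFTSdel replicate 2. FOXA2, a pioneer factor of endoderm and liver, was marked only in NTC and WT under DNMT1i, over 2614 and 1243 bp. With FOXB2, FOXE3, FOXL2 and FOXI3, these made 7 members newly marked in both NTC and WT, beside 2.97% of all genes. FOXI3, an ectodermal factor, was also marked in UHRF1KO under DMSO.

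Neighbouring forkhead genes could be compared at 3 loci. On chromosome 6, FOXQ1 (starting at 1312098), FOXF2 (1389576) and FOXC1 (1609915) were each marked in 5 of 5 DNMT1i libraries, and under DMSO in 2, 1 and 5. On chromosome 16, FOXF1 (86510527), a factor of lung and gut mesenchyme, was marked in 5 DNMT1i libraries. Its neighbours FOXC2 (86566829), which acts in lymphatic vessels, and FOXL1 (86578549), which acts in gut mesenchyme, were marked under DNMT1i in 3 and 2, in no RFTSdel library. On chromosome 1, FOXE3 (47416285) and FOXD2 (47438044) went opposite ways. FOXD2 was marked in all 5 DMSO libraries and under DNMT1i in NTC and both RFTSdel replicates.

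Lengths of peak were summed over a gene body and 1 kb on either side. FOXQ1, an epithelial and hair follicle factor, carried 1374 bp in NTC DMSO, 289 bp in UHRF1KO DMSO and none in the other DMSO libraries. Under DNMT1i NTC had 2092 bp, UHRF1KO 2138 bp, WT 2120 bp and the RFTSdel replicates 2056 and 681 bp. Except for RFTSdel replicate 2, each DNMT1i value was above every DMSO value. FOXE1, the thyroid factor, carried 2028 bp in NTC and 1029 bp in WT under DMSO, and 2232, 1601, 2110, 1722 and 1504 bp under DNMT1i. Its groups overlapped through NTC DMSO alone.

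FOXC1 and FOXD3 were marked in all 10 libraries, as were 92 protein-coding genes (0.459%). FOXD3, which specifies neural crest, carried 935, 641, 873, 294 and 368 bp of peak in the DMSO libraries (NTC, UHRF1KO, WT, RFTSdel replicates 1 and 2). Under DNMT1i it carried 2139, 1390, 1619, 1524 and 2179 bp. All 5 DNMT1i values were above all 5 DMSO values. Relative to the gene start, DMSO peaks had their midpoint between −173.5 and 421 bp and DNMT1i peaks between 705 and 888 bp. The longest lay at chr1:63322183-63324361 (RFTSdel replicate 2 DNMT1i, fold 4.14, −log10 q 2.55). At FOXC1, which acts in the eye and vessels, all 5 DMSO libraries had a peak at the 3′ side of the gene and only UHRF1KO and WT also had a peak near the start. NTC DMSO also had a peak inside the gene, away from the end windows. Under DNMT1i an end peak of NTC, WT and RFTSdel replicate 2 had its midpoint inside the gene, the longest at chr6:1609073-1611603 in NTC (fold 4.43, −log10 q 2.54).

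The shift at FOXD3 was seen over the tissue-restricted members. Their 49 pairs of peak and gene under DMSO had a median peak length of 759 bp, and 38.8% of midpoints lay inside the gene. Under DNMT1i there were 90 pairs with a median length of 1229 bp, and 71.1% of midpoints lay inside. For the 25 of these genes with a known strand, the median midpoint moved from 7 bp to 772 bp past the gene start. In single libraries this median was between −208.5 and 299.5 bp under DMSO and between 675 and 852.5 bp under DNMT1i, so the 2 treatments did not overlap. Over all 4270 protein-coding genes of up to 10000 bp with a known strand it moved from 104.5 to 219.5 bp, and the share of midpoints inside the gene from 49.8% to 60.9%. Their library medians, 73.5 to 131 bp under DMSO and 144 to 531 bp under DNMT1i, did not overlap either, so the direction is not particular to the forkhead genes. Because the genes marked differ between treatments, part of the pooled difference is between genes. Peaks in the whole lists did not lengthen alike: their median length was 494 to 664 bp under DMSO and 435 to 639 bp under DNMT1i.

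The remaining tissue-restricted genes varied more between libraries. FOXF2 was marked at an end under DMSO in NTC alone. FOXD1, a factor of kidney stroma, FOXL1 and FOXL3 were each marked under DNMT1i in NTC and WT and in 1 DMSO library. FOXI2 was marked in UHRF1KO and WT under DMSO and in all 3 wild-type lines under DNMT1i. FOXH1, the SMAD partner of Nodal signalling, was marked in 2 DMSO and 3 DNMT1i libraries, and FOXS1 in 1 of each. The windows of FOXH1 and FOXS1 overlap that of another protein-coding gene, as for 12 members in all. The others are FOXA1, FOXA3, FOXJ1, FOXJ2, FOXL2, FOXL2NB, FOXM1, FOXN4, FOXO4 and FOXP3. Peaks in a shared window cannot be assigned to either gene.

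FOXA1, FOXA3 and FOXJ1, like FOXD2, were marked in fewer DNMT1i than DMSO libraries. FOXA1, a pioneer factor of endoderm, was marked in all 5 DMSO libraries, over 1616, 1658, 1135, 291 and 1466 bp. Under DNMT1i it was marked in RFTSdel alone, over 2067 and 1629 bp. FOXJ1, which drives motile cilia, was marked in all DMSO libraries but UHRF1KO and under DNMT1i in RFTSdel alone. FOXA3 was marked in all libraries but WT DNMT1i, by peaks with midpoints between −1244 and −528 bp of its start, on the side of its neighbour SYMPK. Counting only peaks with 50% of their length in the window turned FOXA3 to 2 libraries more under DNMT1i, and with lists of equal length FOXA1 did the same. FOXA1, FOXA3 and FOXJ1 share an end window with another gene (TTC6, SYMPK and RNF157).

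Among the widely expressed members the FOXO factors act downstream of insulin and PI3K-AKT signalling, which keeps them out of the nucleus. FOXO1 was marked in all libraries but WT DNMT1i. It carried 1641, 689, 2689, 1295 and 1042 bp under DMSO and 835, 917, 0, 2284 and 3096 bp under DNMT1i in the library order used above, so the treatments overlapped. UHRF1KO and both RFTSdel replicates carried more under DNMT1i, NTC and WT less. The longest peak lay at chr13:40664421-40667516 (RFTSdel replicate 2 DNMT1i, fold 3.89, −log10 q 2.18). In NTC and UHRF1KO the DNMT1i peak of FOXO1 lay 1315 and 967 bp past the start. The NTC DMSO peak had its midpoint at −342 bp. FOXO3 carried 2763, 3662, 2770, 1893 and 2262 bp under DMSO and 0, 280, 0, 1446 and 2284 bp under DNMT1i. FOXO6 was marked in all 5 DMSO libraries and under DNMT1i in RFTSdel alone. FOXO4 had a peak in UHRF1KO DMSO only.

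FOXK1 and FOXK2 regulate glucose metabolism and autophagy. Under DMSO FOXK1 carried 5902, 4949, 3661, 2187 and 2910 bp and FOXK2 3210, 5058, 1742, 1564 and 1674 bp over body and ends. Under DNMT1i FOXK1 carried 0, 254, 0, 594 and 1251 bp and FOXK2 1924, 0, 0, 362 and 1248 bp. At the ends FOXK1 was unmarked in WT DMSO, and with lists of equal length it was marked in 2 more DNMT1i than DMSO libraries. At FOXK1 every DNMT1i value was below every DMSO value. FOXK2 overlapped through NTC DNMT1i.

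Some members split by construct under DNMT1i, over the whole family at a share close to that of all genes. FOXN2, FOXN3, FOXO6, FOXP1, FOXP2 and FOXP4, with the tissue-restricted FOXA1, were marked in all 5 DMSO libraries and both RFTSdel DNMT1i libraries and in none of NTC, UHRF1KO and WT DNMT1i. That pattern held for 7 of 52 members, 6 of them among the 18 widely expressed, and for 2333 of 20037 genes (11.6%). The RFTSdel lists were also the longest under DNMT1i, at 7561 and 11141 peaks against 4254 to 5844 in the other lines. FOXP1, a regulator of B-cell and monocyte differentiation, carried 4050, 7896, 1924, 3457 and 4448 bp under DMSO and 0, 228, 0, 3801 and 2833 bp under DNMT1i, where the 228 bp lay inside the gene and away from its ends. At FOXN3, a checkpoint suppressor, the end peak had −log10 q of 5.24, 4.16, 6.95, 9.12 and 12.01 under DMSO, and 6.38 and 3.02 in RFTSdel under DNMT1i. FOXJ2 and FOXJ3 were marked in the 4 DMSO libraries other than WT and in RFTSdel DNMT1i. FOXM1, which drives genes of mitotic entry, was marked in the 4 RFTSdel libraries and in no other. It shares an end window with RHNO1 and TEX52, so its marks may belong to a neighbour. Loss in both NTC and WT was found for 9 members (FOXA1, FOXJ1, FOXN2, FOXN3, FOXO3, FOXO6, FOXP1, FOXP2 and FOXP4) beside 32% of all genes. No member was marked in all 5 DMSO libraries and no DNMT1i library, a pattern of 4.13% of all genes.

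Side by side within DMSO, UHRF1KO had 3 fewer marked members than NTC, and each RFTSdel replicate 3 fewer than WT. The share of all genes went the other way, 53.7% in UHRF1KO against 50.8% in NTC, and 44.9% and 47.5% in RFTSdel against 44.2% in WT. Within DNMT1i, UHRF1KO and NTC each marked 3 widely expressed members, FOXO1, FOXK1 and FOXO3 in UHRF1KO and FOXO1, FOXK2 and FOXN4 in NTC. RFTSdel marked 13 in each replicate and WT none. RFTSdel and WT share batch 1. With 1 library in UHRF1KO, NTC and WT these differences have no replicate check, and they were not tested. In RFTSdel under DNMT1i 26 members were marked in both replicates and 5 in 1 alone.

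An end mark was absent in all 10 libraries for 12 members, beside 31.4% of all genes. They were FOXD4, FOXD4L1, FOXD4L3, FOXD4L4, FOXD4L5, FOXD4L6, FOXI1, FOXR1 and FOXR2 among the tissue-restricted genes and FOXN1, FOXO3B and FOXP3 among the widely expressed. The FOXD4 genes are near-identical copies, as is FOXO3B of FOXO3, so reads may have been split or dropped in alignment and their values are uncertain. FOXN1, the factor of thymic epithelium, FOXP3, that of regulatory T cells, and FOXO3B had peaks over the body alone. FOXO3B had them in all DNMT1i libraries but RFTSdel replicate 1, over 545, 1064, 652 and 295 bp, and in no DMSO library.

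Marked and unmarked members differed in promoter CpG. The 12 members without a mark had a median of 12 CpG in 300 bp (range 1 to 22) and the 29 marked members with a window 33 (range 3 to 55). Most of those 12 are the FOXD4 genes and FOXO3B, near-identical copies where a missing mark may come from the alignment. The other unmarked members were FOXR1 with 22 CpG, FOXI1 with 16, FOXN1 with 12, FOXP3 with 10 and FOXR2 with 1. Widely expressed members had a median of 37 and tissue-restricted members 24. The median was 28 for the 11 members marked in more DNMT1i than DMSO libraries and 41 for the 15 marked in fewer. Over all genes the same medians were 30 and 28, and 6 for genes without a mark. Of the windows printed above, FOXN3 has 42 CpG and FOXR2, the lowest of all members, 1. FOXP2 had the fewest among marked members, 3.

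Shares were then read within coarse strata of CpG content and length, chosen after the data were seen. The part of either in the differences was not tested. The 15 tissue-restricted members with at least 20 CpG went from 45.3% ± 11.9 marked to 74.7% ± 7.30 (SD, n = 5 each), higher in 5 of 5 pairs. All 1869 protein-coding genes of up to 10000 bp with at least 20 CpG went from 69.1% ± 4.41 to 32.3% ± 19.3, lower in 5 of 5. For fewer than 20 CpG, the 10 tissue-restricted members went from 2% ± 4.47 to 12% ± 8.37, higher in 4 pairs and lower in 0. Only FOXB1 and FOXD1 of these 10 were marked in any library. Most of the others are FOXD4 genes, near-identical copies whose values are uncertain. The 2401 protein-coding genes of that stratum went from 19.7% ± 4.56 to 7.15% ± 3.25. The 11 widely expressed members over 10000 bp with at least 20 CpG went from 85.5% ± 12.2 to 45.5% ± 42.6, and 7873 such genes from 66.1% ± 4.13 to 30.7% ± 19.3. In the long stratum the members' mean moved the same way as that of all genes. In the short stratum with at least 20 CpG it moved the opposite way. The rise in the other short stratum rests on FOXB1 and FOXD1.

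Genes around the FOXO and FOXM1 factors were read from 3 lists, beside 44.2% to 53.7% of all genes marked under DMSO and 9.95% to 41.2% under DNMT1i. Of 27 regulators of FOXO (insulin receptor, PI3K, AKT, 14-3-3 proteins and cofactors), 25 were marked in each DMSO library, and 4, 9, 1, 20 and 24 in NTC, UHRF1KO, WT and the RFTSdel replicates under DNMT1i. Fewer DNMT1i than DMSO libraries marked 23 of them (54.9% of all genes) and more marked none (10.5% of all genes). IRS2, which couples the insulin receptor to PI3K, was marked in all 10 libraries, and SKP2, a ubiquitin ligase subunit that targets FOXO1, in all DMSO and no DNMT1i library. Of 24 FOXO targets, 15, 15, 10, 15 and 15 were marked under DMSO and 4, 4, 2, 11 and 12 under DNMT1i. BNIP3, a mitophagy receptor, was the only target with more DNMT1i libraries (4 against 3), and the apoptosis gene BCL2L11 was marked in 5 and 3. Of 16 partners and targets of FOXM1, 10, 14, 7, 13 and 12 were marked under DMSO and 0, 2, 1, 4 and 6 under DNMT1i. CCNB2 and PLK1, genes of mitosis, were marked in all DMSO and no DNMT1i library. The median change was −3, −2 and −3 libraries in these lists, against −2 for widely expressed members, 1 for tissue-restricted members and −1 for all protein-coding genes.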

How the data were processed

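Anti-GFP ChIP-seq peak lists of 11 of the 13 labelled samples were used, and the 2 inputs were not analysed here. The submitters' processing notes name GRCh38 and the tools deepTools, MACS2, Picard, BWA and cutadapt. The sources used here give neither versions and settings nor the control for peaks. Peaks were called per library. The deposited score, the fold (a ratio of signal to background) and −log10 p and −log10 q columns are the authors' caller's values per peak, used only to describe or filter peaks within a list. No list held a −log10 q below 1. The lists hold no counts, so depth is unknown.

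Peaks on chromosomes 1 to 22, X and Y that did not overlap a parental peak were kept. Gene positions and promoter windows came from RefSeq (GRCh38.p14). Strand was known only for genes with a promoter window. An exact two-sided permutation test of treatment within line was run on every protein-coding gene, with Benjamini-Hochberg adjustment over all of them. RFTSdel libraries were paired by replicate number for per-pair values. Same-numbered RFTSdel libraries deviated together only weakly (correlation 0.054 across genes, 2 pairs). Whether they share more than a number is not known from the labels. Batches follow the sample labels, and the series text numbers them the other way round.

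The members, lists and tests were chosen with earlier results of these data known. Genes described in full were up to 12 members marked in the most libraries, up to 8 marked under DNMT1i only, up to 6 with body peaks only, and any member lost in all pairs or with a parental peak. The remaining members are named with their libraries, except 1 that is counted but not reported here by name. Printed promoters, plotted genes, neighbouring loci, CpG and length strata and peak offsets were chosen after the data were seen. Alternatives changed the peak threshold, window, overlap, parental filter, list length, grouping and libraries. The code was tested on simulated data. Tools were Python 3.11.15 with pandas 2.3.3, numpy 2.4.6, matplotlib 3.10.9 and scipy 1.17.1.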

Additional observations from a re-analysis of the deposited data

Results flagged for a closer look

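The number of marked members moved in opposite directions between lines under the same treatment. It was 3 lower under DNMT1i in UHRF1KO (a change of −3) and 9 and 10 higher in the 2 RFTSdel replicates. WT also changed by −3, against the same 9 and 10 in RFTSdel. In both cases every library of 1 line moved down and every library of the other moved up, and the difference was not tested. The share of all protein-coding genes was lower under DNMT1i in each of these pairs, with changes of −37.9 points for UHRF1KO, −34.2 for WT, and −15.9 and −6.29 for the RFTSdel replicates. WT and UHRF1KO each have 1 pair of libraries. The RFTSdel lists also kept more peaks under DNMT1i (7561 and 11141) than the WT (4254) and UHRF1KO (4642) lists, and the part of list length in the difference was not tested.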

How the results depend on the processing

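In 150 comparisons of main values with an alternative, 132 kept their direction and stayed within 1 SD of the pairs or libraries (counts within 1.5 times), 15 moved further and 3 reversed. That SD is wide: lists of equal length took the widely expressed change from −32.2 to −10 points, the change in all members from 5.0 to 16.5, the share kept from 64.0% to 40.8% and the DMSO group difference from 40.7 to 25.2 points. A fold of at least 4 took the share kept to 36.9%. The DNMT1i group difference (−16.2) ranged from −1.5 with 6 members regrouped to −27.3 without RFTSdel replicate 1, apart from the reversal given next. For single genes, 241 of 367 stayed, 123 moved and 3 reversed. No member had a parental peak, and both alternatives to the parental filter returned the main value throughout. They are counted among the comparisons that stayed and are no check of the results. The reversals came at a −log10 q of at least 4: the change in marked members became −12.3 points, that of tissue-restricted members −3.53 points, and widely expressed minus tissue-restricted under DNMT1i 6.99 points. There 13.7% of marked members were kept, 1 was lost and 0 were gained. At a −log10 q of at least 2, 1 member was lost and 1 gained, and at a fold of at least 4, 2 were lost and 0 gained. Lists of equal length (4254 peaks) gave a tissue-restricted change of 30.6 points and 0 gained, and turned FOXK1 and FOXA1 to 2. A minimum of 50% of the peak in the window turned FOXA3 to 2. The tissue-restricted change was 30 points without near-identical copies, and 18 points with FOXN1, FOXN4, FOXO3B, FOXO6, FOXP2 and FOXP3 counted as tissue-restricted. Without the NTC line 5 members were gained. Chosen after seeing the data, leaving out genes with a shared window gave a difference of 60.1 points under DMSO, and promoter starts alone gave 1 gained. With the replicate block the smallest possible exact permutation p is 0.0625, so 0 genes could reach an unadjusted p under 0.05, against 873 without it. The cause of the other changes was not tested. The share of all genes was not computed under the alternatives, so the shares of members there have no background. Depth is unknown, so a missing peak is not absence of DNMT1.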
